A study of Mus musculus with 6 samples.

Results

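The sarcomere, thin filament and Z-disc genes described here are 49 genes picked by name from the 53084 genes of the count table. They are the troponins, the tropomyosins, the sarcomeric actins, the myosin light chains and myosin-binding proteins, and the proteins of the M-band, the Z-disc and the titin and nebulin filaments, without the myosin heavy chains. RNA was taken from the muscle of 3 Tarsl2+/+ mice (583, 584 and 595) and 3 Tarsl2-/- mice (588, 589 and 591), with 1 library per mouse. All 6 were 6-week-old males of strain C57BL/6 on standard chow. Tarsl2 encodes a threonyl-tRNA synthetase-like protein, and the Tarsl2-/- mice lack a fragment holding exon 3, deleted by CRISPR/Cas9 in every cell. Which muscle was taken, and whether the mice were littermates, is not given in the sources used here. The question was which of the genes that build the contractile apparatus differ between the genotypes, with slow, fast and shared isoforms kept apart.

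The sarcomere is the repeating unit of striated muscle. Thin filaments of actin, tropomyosin and troponin are anchored at the Z-disc, where alpha-actinin crosslinks them, and slide along thick filaments of myosin that are tied together at the M-band. Titin spans from the Z-disc to the M-band, nebulin runs along the thin filament, and desmin filaments tie neighbouring Z-discs to each other. Many of these proteins come from separate genes in slow and in fast fibres, and some cardiac isoforms are also made in developing skeletal muscle.

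Library totals lay between 16176591 and 20123767 counts, and levels are given as CPM, the counts of a gene scaled to the size of its library after TMM correction. Summed levels of marker lists were scaled to library totals alone, without that correction. The targeted gene matched the labels, since Tarsl2 measured 26.7, 32.1 and 24.4 CPM in the Tarsl2+/+ mice and 2.23, 1.87 and 1.8 CPM in the Tarsl2-/- mice. The labelled tissue matched its markers, with skeletal muscle genes (Ckm, Ryr1, Cacna1s, Myf6, Pvalb and Atp2a1) summing to between 35888 and 41998 CPM. Heart markers summed to 0.489 to 1.02 CPM in Tarsl2+/+ muscle and 0.539 to 0.804 CPM in Tarsl2-/- muscle, with 4 of 6 (Nppa, Myl7, Mybpc3 and Nkx2-5) at 3 counts or fewer in every library. The sample records speak of retina in 1 protocol line, yet no gene of 8 retinal markers had more than 7 counts in any library.

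Most of the genes had a higher estimate in Tarsl2-/- muscle, and a few of them passed the test. Of the 48 members with enough counts to be tested, 38 had a log2 fold change above 0 and 10 below, a share of 79.2% against 50.4% of all 15075 genes tested. Their median log2 fold change was 0.22, beside 0.0025 over all genes. At an adjusted p under 0.05 (edgeR's quasi-likelihood test, Benjamini-Hochberg over all genes), 5 members were higher in Tarsl2-/- muscle and 0 were lower. Over all genes, 0.896% were called higher and 1.37% lower, 2.27% in all. The 5 were Alpk3, Nrap, Actn3, Des and Tpm2. At an unadjusted p under 0.05, 18 members were higher and 2 (Actc1 and Smpx) lower, where 9.57% and 10.2% of all genes met that mark. The 3 Tarsl2-/- levels all exceeded the 3 Tarsl2+/+ levels in 13 members, and all lay below them in 1, which compares with 12.6% and 12% of all genes. In bulk tissue, fewer cells of a type and less RNA per cell cannot be told apart, and all these values are relative to the other RNA of the same muscle. Without mouse 583, 2 members (Alpk3 and Nrap) passed, and without any 1 of the 3 Tarsl2-/- mice 3 passed (those and Actn3). The share of all genes called moved as well, to between 0.526% and 1.21% without mouse 583, 595, 588, 589 or 591, and to 4.06% without mouse 584.

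**Figure D1:**
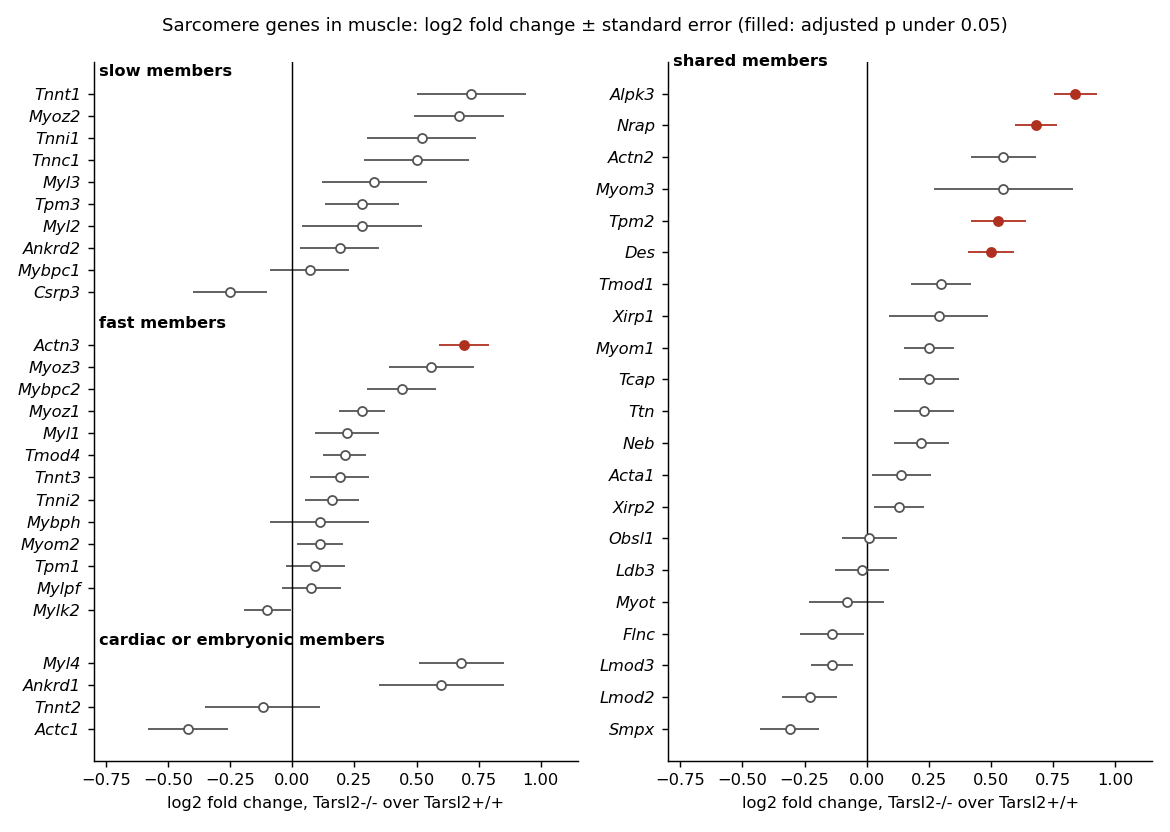
Log2 fold change (Tarsl2-/- over Tarsl2+/+, horizontal axis) with its standard error for each of the 48 tested genes, grouped as slow, fast, cardiac or embryonic, and shared. Filled points mark an adjusted p under 0.05, and these 5 genes (Alpk3, Nrap, Actn3, Tpm2 and Des) all lie between 0.50 and 0.84.

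The regions before the start sites of 3 called genes, Alpk3, Nrap and Des, are shown. Each has a RefSeq entry without exon bases in this window. Tpm2, also called, has an entry with 1 E-box and is not shown, and Actn3 has no entry. The region of Actc1 is shown because this gene had the lowest log2 fold change of all members. The sequences are from RefSeq on GRCm38.p6 and read 5′ to 3′ on the strand of the gene. They end at the base before its RefSeq start, or for Actc1 with 12 exon bases at the end left out. In the count table Actc1 starts further upstream, at 114053548, so that its window lies inside the span of the counted gene. Positions below are relative to the RefSeq start. Capitals mark an E-box (CANNTG), a CArG box, a MEF2 site, an MCAT element (CATTCC) or a TATA box (TATAA, forward strand only, the others on both strands).
Alpk3, chr7:81057350-81057599, plus strand: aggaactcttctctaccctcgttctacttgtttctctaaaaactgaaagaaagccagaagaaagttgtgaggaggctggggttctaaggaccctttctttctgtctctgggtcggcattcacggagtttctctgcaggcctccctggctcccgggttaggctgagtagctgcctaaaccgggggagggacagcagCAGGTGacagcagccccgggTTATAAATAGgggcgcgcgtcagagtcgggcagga
Nrap, chr19:56390039-56390288, minus strand: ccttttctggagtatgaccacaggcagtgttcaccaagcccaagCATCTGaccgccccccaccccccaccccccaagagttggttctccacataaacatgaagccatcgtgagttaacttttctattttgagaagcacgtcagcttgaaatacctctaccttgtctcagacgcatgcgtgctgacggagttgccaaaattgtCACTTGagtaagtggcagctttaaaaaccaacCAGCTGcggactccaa
Des, chr1:75360042-75360291, plus strand: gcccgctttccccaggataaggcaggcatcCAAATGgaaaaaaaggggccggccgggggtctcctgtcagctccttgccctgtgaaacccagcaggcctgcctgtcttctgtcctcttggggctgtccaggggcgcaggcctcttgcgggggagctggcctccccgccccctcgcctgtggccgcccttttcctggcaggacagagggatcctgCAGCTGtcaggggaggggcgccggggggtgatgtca
Actc1, chr2:114052888-114053125, minus strand: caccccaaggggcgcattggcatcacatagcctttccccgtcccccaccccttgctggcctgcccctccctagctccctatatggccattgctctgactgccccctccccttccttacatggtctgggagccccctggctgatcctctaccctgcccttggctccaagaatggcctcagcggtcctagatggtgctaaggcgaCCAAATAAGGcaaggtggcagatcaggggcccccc
In Alpk3 the capitals are an E-box at -55 to -50 and a MEF2 site at -35 to -26, which overlaps the TATA box at -34 to -30. Nrap held 3 E-boxes, the nearest at -16 to -11, and Des held 2, the nearest at -36 to -31. The single match in Actc1 was a CArG box at -47 to -38. These matches are letters in a window, and binding was not measured.

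RefSeq promoters of 250 bases were matched to 37 members, with 44 start sites. The members without an entry are Tnnt3, Actn3, Xirp1, Myom2, Tnni2, Myoz3, Mylk2, Myot, Tcap, Lmod3, Myoz1 and Neb. A CArG box, the sequence bound by serum response factor, was found in 6 of the 44 promoters (13.6%), against 1.47% of 32851 promoters in all. They belong to Acta1, Actc1, Ldb3 (with 2 start sites), Myl3 and Myom1. A MEF2 site was found in 5 (11.4%, against 2.92%), those of Alpk3, Myom3, Myoz2, Ttn and Xirp2. An MCAT element was found in 25% against 12.6%, an E-box in 81.8% against 66.2%, and a TATA box in 18.2% against 16%. Of these MEF2-site genes Alpk3 rose, while Myom3, Myoz2, Ttn and Xirp2 had log2 fold changes of 0.55, 0.67, 0.23 and 0.13 that did not pass the test. No gene with a CArG box passed the test, and their estimates ran from -0.42 (Actc1) to 0.33 (Myl3).

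The largest difference was in Alpk3, which encodes a muscle alpha-kinase family protein found at the M-band. It measured 30.7, 32.8 and 35.1 CPM in Tarsl2+/+ mice 583, 584 and 595, and 56.4, 57.7 and 62.2 CPM in Tarsl2-/- mice 588, 589 and 591. The genotypes did not overlap, and the spread within each was small beside the gap (32.9 ± 2.21 against 58.8 ± 3.04 CPM, SD, n = 3 each). Alpk3 was 1.79-fold higher in Tarsl2-/- muscle, with a log2 fold change of 0.84 ± 0.088 (SE, adjusted p = 0.0011). It stayed past the threshold with each mouse left out in turn, at adjusted p of 0.00333 to 0.0134 (edgeR). The gene lies at chromosome 7, 81057600 to 81105612, on the chromosome of Tarsl2 itself (65644898 to 65692091). Of the members, Tnnt1, Csrp3, Tnnt3, Tnni2, Mylpf and Mybpc2 also lie on chromosome 7 and were not called in edgeR. Of the skeletal muscle markers, Ckm, Ryr1 and Atp2a1 lie there too. Ckm and Ryr1 were called higher (edgeR adjusted p = 0.0433 and 0.0403) and Atp2a1 was not (0.0659). The bearing of position on these values was not tested.

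Nrap, the nebulin-related anchoring protein that takes part in myofibril assembly and sits at the ends of muscle fibres, had the second smallest p of the members. Its levels were 157, 168 and 168 CPM in Tarsl2+/+ muscle and 249, 271 and 267 CPM in Tarsl2-/- muscle. The 3 mice of each genotype lay close together and apart from the other 3, and Nrap was 1.6-fold higher in Tarsl2-/- muscle (log2 0.68 ± 0.085 SE, edgeR adjusted p = 0.00333). With each mouse left out in turn the adjusted p lay between 0.00605 and 0.0303, so that Nrap and Alpk3 were the 2 members called in all 6 such fits.

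Des encodes desmin, the intermediate filament protein of muscle. It measured 847, 898 and 929 CPM in Tarsl2+/+ muscle and 1313, 1227 and 1243 CPM in Tarsl2-/- muscle. The genotypes were apart, at 1.41-fold (log2 0.50 ± 0.092 SE, edgeR adjusted p = 0.0196). Tpm2 encodes beta-tropomyosin, which lies along the actin filament in both fibre kinds. It measured 3599, 4017 and 3413 CPM against 5440, 5052 and 5474 CPM, again without overlap, at 1.45-fold (log2 0.53 ± 0.11 SE, adjusted p = 0.028). Both calls were lost in most fits with a mouse left out. Des passed in 2 of 6 (up to adjusted p = 0.117 without mouse 583) and Tpm2 in 1 of 6 (up to 0.14 without mouse 583), while their log2 fold changes stayed at 0.46 to 0.53 and 0.48 to 0.60. The adjusted p of Des missed the threshold without mouse 583, 588, 589 or 591 and that of Tpm2 without any mouse but 584. Reads of the tropomyosin genes can match more than 1 of them, and how such reads were counted is not given in the sources used here.

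Actn3, alpha-actinin-3, crosslinks actin at the Z-disc of fast fibres and was the fast-type gene that passed. Its levels were 2660, 2808 and 2570 CPM in Tarsl2+/+ muscle and 4656, 4097 and 4243 CPM in Tarsl2-/- muscle. The genotypes did not overlap, at 1.62-fold (log2 0.69 ± 0.10 SE, edgeR adjusted p = 0.00807). The call held in 5 of 6 fits with a mouse left out and reached an adjusted p of 0.0568 without mouse 583. Its relative Actn2, present in all fibres, measured 136, 164 and 185 CPM against 207, 269 and 232 CPM. These groups did not overlap either, with a log2 fold change of 0.55 ± 0.13 SE that missed the threshold in edgeR (adjusted p = 0.0529) and passed it in DESeq2 (0.00179).

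**Figure D2:**
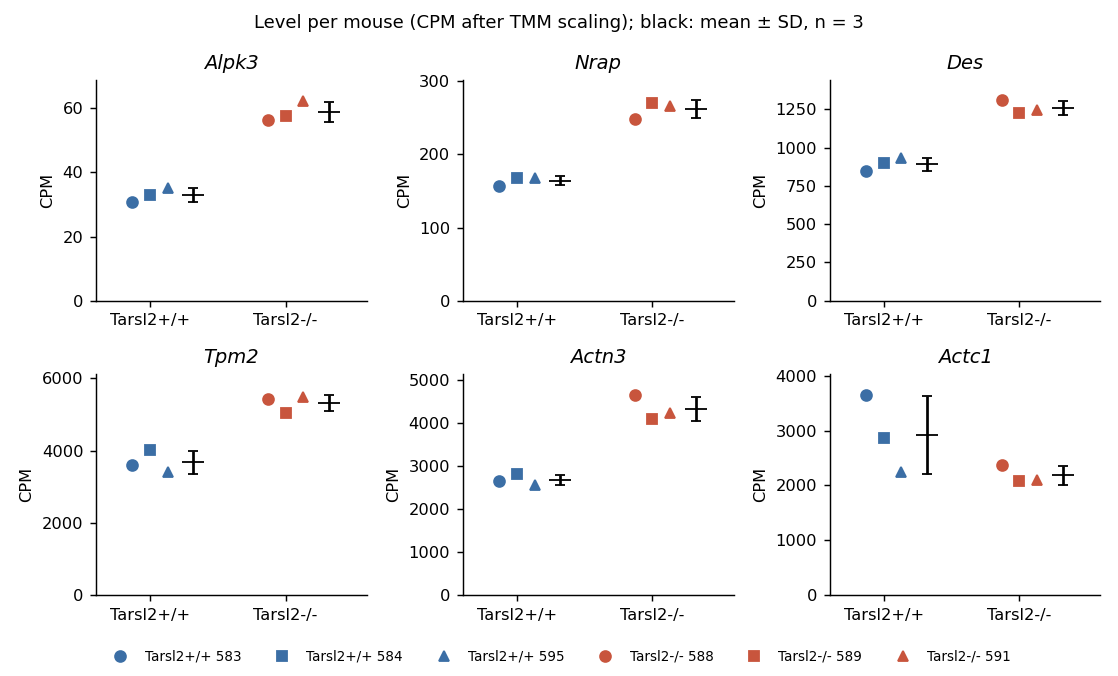
CPM per mouse (vertical axes, from 0) of the 5 genes called higher, Alpk3, Nrap, Des, Tpm2 and Actn3, and of Actc1, with the mean ± SD of 3 mice per genotype in black. In the first 5 panels the 3 Tarsl2-/- mice sit above the 3 Tarsl2+/+ mice, while in Actc1 the genotypes overlap.

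Among the 14 fast-type genes, 13 were tested, 12 had an estimate above 0 and 1 below (Mylk2), and Actn3 was the 1 called (edgeR). Their median log2 fold change was 0.19. The genotypes were apart with Tarsl2-/- above in 5 of them, which besides Actn3 are Mybpc2, Myoz1, Myoz3 and Tmod4. Of all genes tested, 12.6% were apart in that direction and 0.896% were called higher in edgeR. Mybpc2, the fast myosin-binding protein C of the thick filament, measured 1120, 1156 and 825 CPM against 1345, 1268 and 1597 CPM (log2 0.44 ± 0.14, adjusted p = 0.117). Myoz1, a calcineurin-binding Z-disc protein of fast fibres, measured 1447, 1578 and 1504 CPM against 1862, 1805 and 1829 CPM (log2 0.28 ± 0.092, adjusted p = 0.13). In Mybpc2 mouse 595 was the low one and in Myoz1 the mice of each genotype were close to each other. Myoz3, of the same family, measured 13, 12.8 and 7.82 CPM against 17.6, 16.5 and 15.4 CPM (log2 0.56 ± 0.17, adjusted p = 0.103). Tmod4, which caps the slow-growing ends of thin filaments, measured 391, 433 and 392 CPM against 472, 461 and 469 CPM (log2 0.21 ± 0.087, adjusted p = 0.222). With DESeq2, Mybpc2, Myoz1 and Myoz3 passed as well (adjusted p = 0.0243, 0.0321 and 0.0468), where 2.06% of all genes were called higher.

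The fast genes with the highest counts gave smaller estimates. Mylpf and Myl1, the regulatory and essential light chains of fast myosin, had log2 fold changes of 0.077 ± 0.12 and 0.22 ± 0.13. Tnnt3 and Tnni2, fast troponin T and troponin I, had 0.19 ± 0.12 and 0.16 ± 0.11, and Tpm1, alpha-tropomyosin, 0.093 ± 0.12. None of these 5 passed the test in edgeR or DESeq2, and none met an unadjusted p of 0.05. Per kilobase of gene model, Mylpf was the most abundant member at 33680 CPM per kb in Tarsl2+/+ muscle, followed by Acta1, the skeletal alpha-actin, at 14115, then Tnnt3 at 8358, Myl1 at 7975 and Tnni2 at 6909. By the same measure Alpk3 stood at 5.1 and Nrap at 29.8, far down the order, at places 41 and 32 of 48.

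Tnnc2, fast skeletal troponin C, was the 1 member not tested. It had 2, 3 and 3 counts in Tarsl2+/+ muscle and 4, 2 and 2 in Tarsl2-/- muscle, while its partner subunits Tnnt3 and Tnni2 were at 9916 CPM or more in every mouse. In GENCODE vM21, 592 of its 800 exon bases (74%) lie opposite exons of Ube2c, on the other strand. Ube2c had 125 to 257 counts per library. Whether reads were assigned by strand, and how reads in overlapping genes were treated, is not given in the sources used here, so the table gives no usable level for Tnnc2, and the part of the overlap in its low count was not tested. Mybph and Tmod1 share 49.9% and 32.6% of their exon bases with genes of the other strand and measured 95.6 to 190 and 44 to 70.7 CPM. In all, 14 members overlap exons of the opposite strand, 0 of the same strand, and 35 none. Among the called genes the overlap was 6.83% for Nrap, 5.86% for Des and 0 for Alpk3.

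All 10 slow-type genes were tested, and 9 had an estimate above 0 with a median log2 fold change of 0.30, yet 0 were called in edgeR. That count depends on the filter. Without a filter on low counts edgeR called Tnnt1, Tnni1, Tnnc1, Myl3 and Myoz2 higher, and 2.39% of all genes. In the filtered fit 4 were higher at an unadjusted p under 0.05 (Tnnt1, Myoz2, Tnni1 and Tnnc1), as were 9.57% of all genes, and DESeq2 called 0. Tnnt1, slow troponin T, measured 83, 78.4 and 136 CPM in mice 583, 584 and 595 against 127, 217 and 147 CPM in mice 588, 589 and 591. Mouse 595 stood apart in its genotype and mouse 589 in its own, and the genotypes overlapped (log2 0.72 ± 0.22 SE, edgeR adjusted p = 0.11). Tnni1, slow troponin I, ran 49.7, 44.9 and 72.7 against 63.4, 110 and 66.9 CPM (log2 0.52 ± 0.22). Tnnc1, the troponin C of slow and cardiac muscle, ran 76.5, 83.5 and 132 against 103, 177 and 135 CPM (log2 0.50 ± 0.21). The same 2 mice were the high ones in both genes, and the adjusted p was 0.208 and 0.224 (edgeR). Myoz2, the calcineurin-binding Z-disc protein of slow and cardiac muscle, was the 1 slow member without overlap, at 108, 135 and 198 against 229, 267 and 209 CPM (log2 0.67 ± 0.18 SE, adjusted p = 0.0779). Without mouse 595 it passed, at a log2 fold change of 0.94 and an adjusted p of 0.0136.

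The other slow members gave smaller estimates. Tpm3, slow alpha-tropomyosin, measured 157, 150 and 211 CPM against 176, 247 and 205 CPM (log2 0.28 ± 0.15). The slow and cardiac light chains Myl2 and Myl3 had log2 fold changes of 0.28 ± 0.24 and 0.33 ± 0.21, and Ankrd2, a titin-binding ankyrin repeat protein, 0.19 ± 0.16. Mybpc1, the slow-type myosin-binding protein C that fast fibres also make, was at 509, 352 and 589 against 531, 505 and 486 CPM (0.070 ± 0.16). Csrp3, the muscle LIM protein of the Z-disc, was the 1 slow member with a lower estimate, at -0.25 ± 0.15. It is named here after its values were seen, and none of these 6 genes passed the test in the filtered edgeR fit or DESeq2.

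Slow genes varied between mice of 1 genotype far more than fast ones. The median coefficient of variation was 28.9% in Tarsl2+/+ and 19.6% in Tarsl2-/- muscle for the slow members, 5.84% and 5.67% for the fast, and 8.78% and 10.2% for the shared members. For the cardiac or embryonic members it was 23% and 22.8%. All 10 slow members had their highest Tarsl2+/+ level in mouse 595, and 9 of 10 their highest Tarsl2-/- level in mouse 589. Relative to each gene's Tarsl2+/+ mean, the median slow member stood at -0.18, -0.21 and 0.44 log2 units in mice 583, 584 and 595, and at 0.14, 0.69 and 0.27 in mice 588, 589 and 591. Mouse 595 was therefore above mice 588 and 591, and the range inside a genotype (0.65 and 0.54) exceeded the median difference between genotypes. The median log2 fold change of the slow members was 0.65 without mouse 595, 0.41 without 588, 0.14 without 589, 0.19 without 583 and 0.20 without 584. For fast members the same medians were 0.053, 0.068 and -0.092 against 0.30, 0.18 and 0.18, and for shared members -0.039, 0.023 and 0.019 against 0.24, 0.18 and 0.072.

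Genes of slow fibres outside the sarcomere were read in the same libraries. Of the 5 tested, 3 were highest in mouse 595 among Tarsl2+/+ and 3 in mouse 589 among Tarsl2-/- mice. The summed level of the list was 2784, 3097 and 3674 CPM in mice 583, 584 and 595. In mice 588, 589 and 591 it was 3160, 2840 and 3176 CPM, lowest in mouse 589. Mb, the gene of the list with the most counts, was lowest in mouse 589 too, at 1866 CPM. Atp2a2, the slow calcium pump, measured 68, 63.7 and 93.7 CPM against 64.9, 118 and 65.3 CPM, highest in mice 595 and 589. Mouse 589 also had the highest summed level of 6 adipocyte markers, at 3693 CPM beside 1224 to 1356 in the other 2 Tarsl2-/- mice and 1170 to 1970 in Tarsl2+/+ mice, and of 5 Schwann cell markers, at 221 CPM beside 127 to 158 and 180 to 186. No gene of either list was at 3 counts or fewer in every library. The part of such tissue in the slow values was not tested. With mice 595 and 589 both left out, a choice made after seeing the data, the members called were Alpk3, Nrap, Actn3, Myoz2 and Tnnt1 and the slow median was 0.45.

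**Figure D3:**
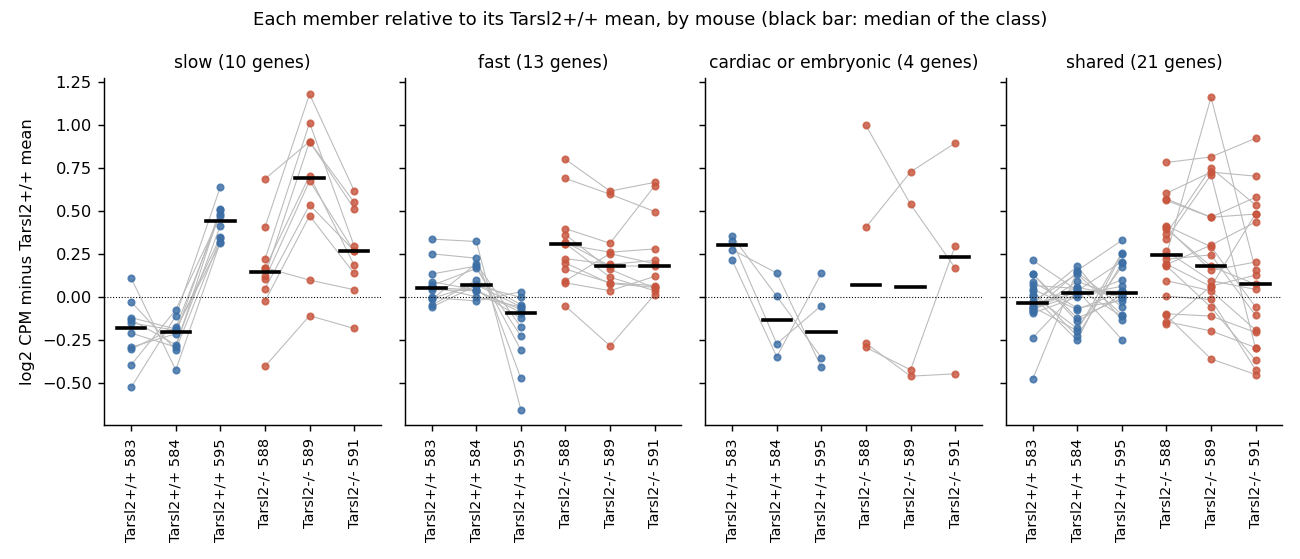
Log2 CPM of each gene minus its Tarsl2+/+ mean (vertical axis) in each of the 6 mice, 1 panel per class, with grey lines joining a gene and black bars at the median of the class. In the slow panel mice 595 and 589 stand above the others of their genotype, with medians of 0.44 and 0.69, and in the fast and shared panels the mice of a genotype lie closer together.

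The balance of slow and fast isoforms was compared as the share of the slow gene in the summed counts of a pair, which does not depend on scaling between libraries. Of 8 pairs, 6 had a higher mean slow share in Tarsl2-/- muscle, 0 were without overlap between genotypes, and mouse 595 had the highest Tarsl2+/+ share in 8 of 8. For Tnnt1 and Tnnt3 the share was 0.601%, 0.574% and 1.09% in Tarsl2+/+ mice and 0.744%, 1.45% and 1.07% in Tarsl2-/- mice. The means were 0.754% ± 0.289 and 1.09% ± 0.354 (SD, n = 3 each), a gap of 0.332 points that is within the spread. For Myoz2 and Myoz1 the means were 8.83% ± 2.46 and 11.4% ± 1.35, with mouse 595 at 11.6% above mice 588 and 591. For Tnni1 and Tnni2 they were 0.54% ± 0.163 and 0.698% ± 0.248. The light chain pairs Myl3 and Myl1 (2.37% ± 1.03 and 2.49% ± 0.622) and Myl2 and Mylpf (0.821% ± 0.382 and 0.938% ± 0.22) and the pair Tpm3 and Tpm1 (1.6% ± 0.547 and 1.77% ± 0.336) showed the same overlap, and each of these 3 gaps changed sign when 1 mouse was left out. The pairs with a lower mean share in Tarsl2-/- muscle were Mybpc1 and Mybpc2 (32.1% ± 9.2 and 26.7% ± 2.93) and Actn2 and Actn3 (5.69% ± 0.934 and 5.19% ± 0.956), where Actn2 is no slow gene but the form of all fibres. Single mice moved the other gaps too. That of Mybpc1 and Mybpc2, -5.36 points, was -0.568 without mouse 595 and -9.74 without mouse 584, and that of Actn2 and Actn3, -0.496, was 0.00844 without mouse 595. Without mouse 589 the gap was 0.15 for Tnnt1 and Tnnt3 and 0.0207, in place of 0.158, for Tnni1 and Tnni2, and for Myoz2 and Myoz1 it was 1.6 without mouse 583, in place of 2.53. Two-sided exact permutation p over the 6 mice ran from 0.3 to 0.8, and each was 0.8 after adjustment over the 8 pairs. An exact permutation test of 3 mice against 3 cannot go below p = 0.1. The pair Tnnc1 and Tnnc2 was not compared because of the low counts of Tnnc2.

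**Figure D4:**
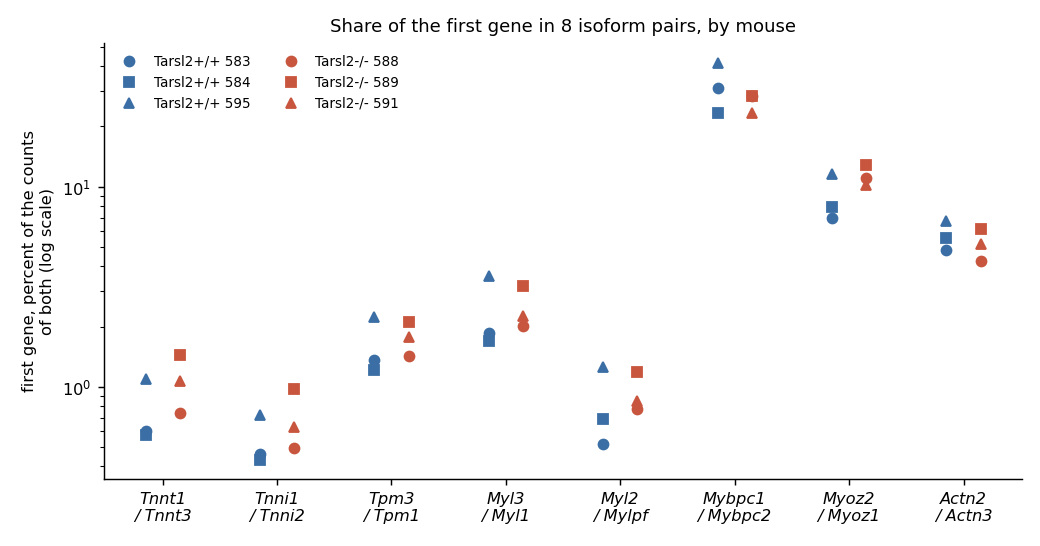
Counts of the first gene as a percentage of the counts of both genes (vertical axis, log scale) for 8 pairs, 1 point per mouse. In every pair the genotypes overlap, and Tarsl2+/+ mouse 595 (blue triangle) is the highest of its genotype, at 1.09% for Tnnt1 and Tnnt3 and 41.7% for Mybpc1 and Mybpc2.

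The 4 members best known from heart or developing muscle did not move together, with 2 estimates above 0, 2 below and a median of 0.24, and 0 were called in edgeR. That median was 0.39 without mouse 583 and 0.082 without mouse 591. Myl4, the embryonic and atrial essential light chain, measured 10.6, 7.17 and 10.1 CPM against 12.2, 15.2 and 17.1 CPM. Its genotypes did not overlap, and its log2 fold change of 0.68 ± 0.17 SE missed the threshold in edgeR (adjusted p = 0.063) and passed it in DESeq2 (0.0123). Ankrd1, a titin-linked ankyrin repeat protein of stretched muscle, was low and overlapped at 3.92, 2.55 and 2.99 against 6.3, 4.55 and 3.5 CPM (log2 0.60 ± 0.25, adjusted p = 0.208). Tnnt2, cardiac troponin T, was at 4.68 to 7.78 CPM in all mice (-0.12 ± 0.23). Actc1, cardiac alpha-actin, which developing skeletal muscle also makes, measured 3647, 2864 and 2236 CPM against 2370, 2075 and 2096 CPM. Mouse 583 was the high one and mouse 595 lay below mouse 588, so the genotypes overlapped (log2 -0.42 ± 0.16, edgeR adjusted p = 0.169). Actc1 and Acta1 have nearly the same coding sequence, so the division of reads between them is uncertain here. Heart markers were near 0 in the same libraries, as given above.

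Among the 21 members shared by slow and fast fibres, 15 had an estimate above 0 and 6 below, 4 were called (Alpk3, Nrap, Des and Tpm2, edgeR), and the median log2 fold change was 0.23. It was 0.12 without mouse 588. The genotypes were apart with Tarsl2-/- above in 6, the 4 called genes with Actn2 and Myom1, and below in 1, Lmod3. Of all genes tested, 12.6% were apart with Tarsl2-/- above, 12% with it below, and 0.896% were called higher in edgeR. Myom1, myomesin of the M-band, measured 357, 295 and 328 CPM against 430, 362 and 374 CPM (log2 0.25 ± 0.10, adjusted p = 0.211). Lmod3, a leiomodin that helps actin filaments form, measured 75.5, 67.8 and 69.9 CPM against 66.3, 65.7 and 61.5 CPM (log2 -0.14 ± 0.083, adjusted p = 0.378). Both differences are small beside those of the called genes, and both genes are named after their values were seen. Acta1, at 20571 to 22342 CPM in Tarsl2+/+ and 22315 to 26031 CPM in Tarsl2-/- muscle, had a log2 fold change of 0.14 ± 0.12. The giant filament genes Ttn (titin) and Neb (nebulin) had 0.23 ± 0.12 and 0.22 ± 0.11, with overlap and adjusted p of 0.323 and 0.309. Smpx, a small muscle protein encoded on chromosome X, had the lowest estimate of the shared members, at 782, 684 and 878 CPM against 721, 605 and 568 CPM (log2 -0.31 ± 0.12, adjusted p = 0.19).

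By place in the sarcomere, 12 of 16 tested thin filament genes, 8 of 9 thick filament genes, 5 of 5 M-band genes and 13 of 18 genes of the Z-disc, titin and intermediate filaments had an estimate above 0. The median log2 fold changes were 0.20, 0.22, 0.25 and 0.27. The called genes were Tpm2 in the thin filament, Alpk3 at the M-band and Nrap, Des and Actn3 in the last group, with 0 in the thick filament (edgeR), where 2 met an unadjusted p under 0.05 and DESeq2 called Mybpc2 and Myl4. DESeq2 called 10 members higher and 0 lower in all, where it called 2.06% of all genes higher and 2.71% lower (4.77% in all). They were the 5 edgeR called and Actn2, Mybpc2, Myl4, Myoz1 and Myoz3.

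Together the 49 genes held 13.6%, 13.8% and 12.1% of all counts in the Tarsl2+/+ mice and 14.9%, 14.1% and 14.6% in the Tarsl2-/- mice. The genotypes did not overlap, with means of 13.2% ± 0.903 and 14.5% ± 0.403 (SD, n = 3 each), a gap of 1.36 points. Without mouse 595 the gap was 0.84 points. Mylpf, Acta1, Myl1, Tnnt3 and Tpm1 held between 73.5% and 75.6% of these counts in every mouse. Fast members took 9.36% ± 0.863 and 10.3% ± 0.29, shared members 3.3% ± 0.0757 and 3.73% ± 0.155, slow members 0.205% ± 0.0505 and 0.247% ± 0.0393, and cardiac or embryonic members 0.296% ± 0.0763 and 0.219% ± 0.0118. Of these classes the shared one was apart between genotypes and the other 3 overlapped. With mitochondrially encoded genes left out of the total, the fast class was apart as well, at 10.1%, 10.7% and 8.84% against 11.3%, 10.7% and 11%.

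A second list of 50 sarcomere genes outside the set, with the myosin heavy chains, chaperones and signalling proteins of the sarcomere, gave 24 estimates above 0 and 21 below in 45 tested genes, with a median of 0.0061. In edgeR 3 were called higher, among them Myh1 (type 2X myosin heavy chain, 310, 356 and 374 against 528, 552 and 491 CPM, log2 0.59 ± 0.10, adjusted p = 0.015) and Speg (a kinase of the junctional membranes, log2 0.42 ± 0.089, adjusted p = 0.0347). Hspb8, a small heat shock protein, was lower (log2 -0.44 ± 0.098, adjusted p = 0.0444), where 0.896% of all genes were called higher and 1.37% lower. Of these 4 calls 0 were left without mouse 583 or mouse 589, 1 without mouse 588 and 2 without mouse 595 or 591. Among the fits with a mouse left out, Hspb8 passed in 0 (edgeR adjusted p of 0.0541 to 0.152), Speg in 1 and Myh1 in 4. Myh4, the heavy chain of type 2B fibres and the most abundant one per kilobase, did not pass, at 7526, 5612 and 7253 against 8078, 6289 and 5536 CPM (log2 -0.035 ± 0.16, and 0.0041 to 0.078 without mouse 583, 595, 589 or 591). Myh7, the slow heavy chain, was at 10.2, 9.99 and 22.1 against 11.1, 52 and 13.9 CPM, highest in mice 595 and 589 as the slow members were (log2 0.85 ± 0.50, adjusted p = 0.385). Without mouse 589 its estimate was -0.17.

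Summed levels of some other tissue markers lay apart between the genotypes in the same libraries. The 6 leukocyte markers summed to 175 to 188 CPM in Tarsl2+/+ and 87.3 to 112 CPM in Tarsl2-/- muscle. All 6 estimates were below 0 and 2 were called lower (edgeR), as were 1.37% of all genes. The 5 erythrocyte markers summed to 4852 to 10140 and 4128 to 4636 CPM, and the 6 tendon markers to 208 to 261 and 167 to 200 CPM. Of these, 0 erythrocyte and 0 tendon markers were called (edgeR), and 3 of 5 and 5 of 6 overlapped between the genotypes. Smooth muscle markers, 1 of whose 6 (Myocd) was at 3 counts or fewer, overlapped at 71.4 to 109 and 79.5 to 95.8 CPM. Of the 6 skeletal muscle markers outside the sarcomere, Ckm (muscle creatine kinase, log2 0.49), Ryr1 (the calcium release channel, 0.42) and Cacna1s (the voltage sensor of the T-tubule, 0.99) were called higher, as were 0.896% of all genes. Their edgeR adjusted p was 0.0433, 0.0403 and 0.0011. With each mouse left out in turn, Cacna1s passed in all 6 fits, Ckm in 1 and Ryr1 in 0. Of the other 3 in that list, Atp2a1 (the fast calcium pump) had an estimate of 0.57 (adjusted p = 0.0659), Myf6 (a myogenic transcription factor) -0.41 (0.168) and Pvalb (parvalbumin) -0.23 (0.347), the last with every Tarsl2-/- level below the Tarsl2+/+ levels. The summed level of the 6 overlapped at 35896 to 41998 and 35888 to 39143 CPM. The part of these tissues in the values of the sarcomere genes was not tested.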

How the data were processed

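RNA-seq libraries were made from total RNA of the muscle of 3 Tarsl2+/+ and 3 Tarsl2-/- mice, 1 per mouse, and samples were grouped by the genotype in their records. The count table that the authors deposited gives unnormalised reads per gene as whole numbers for 53084 genes, 448 of them regions without a gene name. The paper describes a stranded kit, HISAT2 and mm10, while the sample records describe another kit, Bowtie 0.12.2 and mm8. The counting tool, annotation and strand setting are not given in the sources used here. Gene positions are those of the table, and 95.2% of the identifiers found in GENCODE vM21 (GRCm38) had identical coordinates there.

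Counts were filtered with filterByExpr (minimum count 10, minimum total 15), scaled by TMM and compared between genotypes, with no covariate, by the quasi-likelihood test of edgeR 4.0.16 (R 4.3.3), with Benjamini-Hochberg adjustment over 15075 genes and a threshold of 0.05. CPM of single genes are counts scaled to library size after the TMM correction, and summed marker CPM are scaled to library totals alone. The common biological coefficient of variation was 12.1%. The procedure was also run on simulated counts. Genes varied independently there and the changed ones differed by more than the called members, so that run does not speak to differences of this size. Slow shares of isoform pairs were compared by two-sided exact permutation tests. P-values weigh the difference between genotypes against the variation between these mice.

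The members, classes and lists were chosen with earlier results of these data known, so no test of a list is reported here. Named are all called members, the 5 of each class with the smallest p, both genes of each isoform pair, and called genes of the second list, of which 1 is not reported here. Any other gene named was chosen after its values were seen. Alternatives were DESeq2 1.42.0, limma-voom (limma 3.58.1), other scalings, other filters and leaving out each mouse.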

Additional observations from a re-analysis of the deposited data

How the results depend on the processing

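No paired analysis was possible because Tarsl2+/+ and Tarsl2-/- libraries carry no replicate number in common. Scaling by size factors, upper quartile or library totals, or without sarcomere and mitochondrial genes, limma-voom, and a minimum of 10 counts in every library each called the same 5 members as the reported fit, and moved the median of all genes to no lower than -0.019. DESeq2 called 719 of all genes in place of 342, and 10 members higher in place of 5. Without a filter on low counts 1437 genes, 15 members higher (2.39% of all genes), 1 member lower (Actc1) and 7 of the second list were called, in place of 342, 5, 0 and 4. Leaving out each mouse gave 81 to 625 genes, 2 to 5 members higher and 0 to 4 of the second list, with medians of 0.17 to 0.25 for all members, 0.14 to 0.65 for slow and 0.12 to 0.23 for shared members. With mice 595 and 589 both out, chosen after seeing the data, 87 genes, 5 members and 0 of the second list were called. Without 1 mouse, 7 members changed sign, none of them called. Those were Mybpc1 (-0.11 to 0.24, below 0 without mouse 584), Tpm1 (-0.015 to 0.18, without 595), Tnnt2 (-0.39 to 0.013, above 0 without 583, at 0.011, or 589), Mybph (-0.15 to 0.26), Myot (-0.22 to 0.051), Ldb3 (-0.077 to 0.060) and Obsl1 (-0.051 to 0.091). Of the second list 14 did, among them Myh7 (-0.17 to 1.33) and Myh4 (-0.20 to 0.078). Slow shares that changed sign, in points, were Tpm3 and Tpm1 (-0.0254 to 0.481), Myl3 and Myl1 (-0.234 to 0.711, with -0.138 and -0.217), Myl2 and Mylpf (-0.034 to 0.332, with -0.00808) and Actn2 and Actn3 (-0.978 to 0.00844). The cause was not tested. With 3 mice per genotype, leaving out 1 mouse could end the calls of Des, Tpm2 and Actn3, and genes with few counts, such as Tnnc2, could not be compared.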

Other observations

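The calcium-handling genes of the same fibres gave further values. Sln, which encodes sarcolipin, the small inhibitor of the sarcoplasmic calcium pump, measured 29.9, 28.7 and 29.4 CPM in Tarsl2+/+ mice 583, 584 and 595 and 53.7, 41.7 and 66.4 CPM in Tarsl2-/- mice 588, 589 and 591. The genotypes did not overlap (log2 0.88 ± 0.14 SE, edgeR adjusted p = 0.0119). Cacna1s was at 77.1, 90.6 and 75.7 against 148, 157 and 179 CPM, also without overlap (log2 0.99 ± 0.10 SE, adjusted p = 0.0011). Casq2, the slow and cardiac calsequestrin, overlapped at 26.8, 31.2 and 28.9 against 36.3, 38.3 and 30.7 CPM (log2 0.27 ± 0.11, adjusted p = 0.18), and Pvalb, parvalbumin of fast fibres, was at 33247, 29324 and 29360 against 29180, 24802 and 24551 CPM (log2 -0.23 ± 0.13, adjusted p = 0.347). These 4 were taken from the marker lists after their values were seen.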
